A study of Drosophila melanogaster with 6 samples.

Results

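Tetraspanins are small proteins that cross the membrane several times and carry a large extracellular loop held by paired cysteines. They gather partner proteins such as integrins and metalloproteases into membrane domains, and they are found on the plasma membrane, on endosomes and lysosomes and on secreted vesicles. In Drosophila melanogaster many of the genes lie side by side in the Tsp42E cluster, and others are scattered over the chromosomes. Members were every probe set whose annotation names exactly 1 gene with a symbol that starts with Tsp and a digit, together with lbm (late bloomer). This gave 33 of the 18769 probe sets, 1 for each of 33 genes, of which 18 belong to the Tsp42 group with lbm and 15 to the other tetraspanins. Tsp42Eb and Tsp66A are named only by 4 probe sets that also name other genes, and these were left out.

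The samples were S2* cells, a variant of S2, a macrophage-like Drosophila cell line. In 3 untreated samples no hormone was given, and 3 samples received 1 µM 20-hydroxyecdysone (20E), the steroid of moulting and metamorphosis, for 24 h. Cultures of both groups were kept at 27 °C in Schneider's medium (10% fetal bovine serum), and total RNA of each sample was hybridised to 1 Affymetrix Drosophila 2.0 array. No solvent is mentioned for the untreated samples and nothing says that the replicates were separate cultures, so effects of solvent and of 20E cannot be told apart, and p-values cover the spread of these arrays alone, possibly a technical one. In a cell population, fewer cells with a transcript and less of it per cell cannot be told apart.

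The median deposited intensity per array was 43.2 to 56.4, and between 9 and 456 cells per array were empty, most of them on 20E replicate 2. That array was also the one farthest from the median of its group in 20 of the 30 tetraspanin probe sets with 6 values, against 7 for 20E replicate 1 and 3 for 20E replicate 3. Among the untreated arrays, replicate 1 was farthest in 16 of these probe sets, against 10 for replicate 2 and 6 for replicate 3, ties included. These counts were not made over all probe sets. The hormone-inducible genes Hsp27, Hsp26 and Eip78C rose by 5.70, 4.68 and 2.78 on the log2 scale (limma, adjusted p = 3.81e-05, 0.00022 and 0.000669). Of 8 haemocyte markers, the GATA factor gene srp rose and Nplp2 fell. The other 6, Hml, Pxn, NimC1, He, eater and ush, were not called, and the first 5 had group means of at most 54.1 normalized units. The summed level of the haemocyte list was 5502 to 6113 units in untreated samples and 1168 to 2639 in 20E samples. Nplp2 alone set this fall in the sum, since without it the sum was 422 to 689 and 1071 to 2532. The rise of this remaining sum was mostly that of srp, with group means of 308 and 1576 units, and less that of ush, with 76.6 and 241. The summed level of 3 neuronal markers was 214 to 299 and 231 to 290. For 2 muscle markers, mostly through Mlc2, it was 2022 to 6183 and 1797 to 3477. For 5 salivary gland markers it was 643 to 741 and 431 to 929, and for 4 gut markers 253 to 317 and 306 to 591. The part of all these markers in the tetraspanin differences was not tested.

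After a day of 20E, 3 tetraspanin transcripts were higher and none was lower. Tsp42Ed went from below 0 to 676 ± 23 normalized intensity units, Tsp42Ea from 43.8 ± 11.1 to 460 ± 113, and Tsp96F from 22.1 ± 13.4 to 108 ± 21.9 (SD, n = 3 per group). The other 30 did not pass the test. Differences are on the scale log2(normalized intensity + 16), with values below 0 set to 0, and they understate the change of dim probe sets. The test was limma over all probe sets, with Benjamini-Hochberg adjustment and a threshold of 0.05. By this rule 5.10% of the 18767 probe sets tested were called, 3.02% higher and 2.08% lower in 20E samples. The 3 calls are 9.09% of the 33 members, all higher, a share that rests on few probe sets and was given no test. Over all probe sets the split was 567 higher to 390 lower, and 723 to 307 without normalization between arrays. The plot of differences shows all 33.

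**Figure D1:**
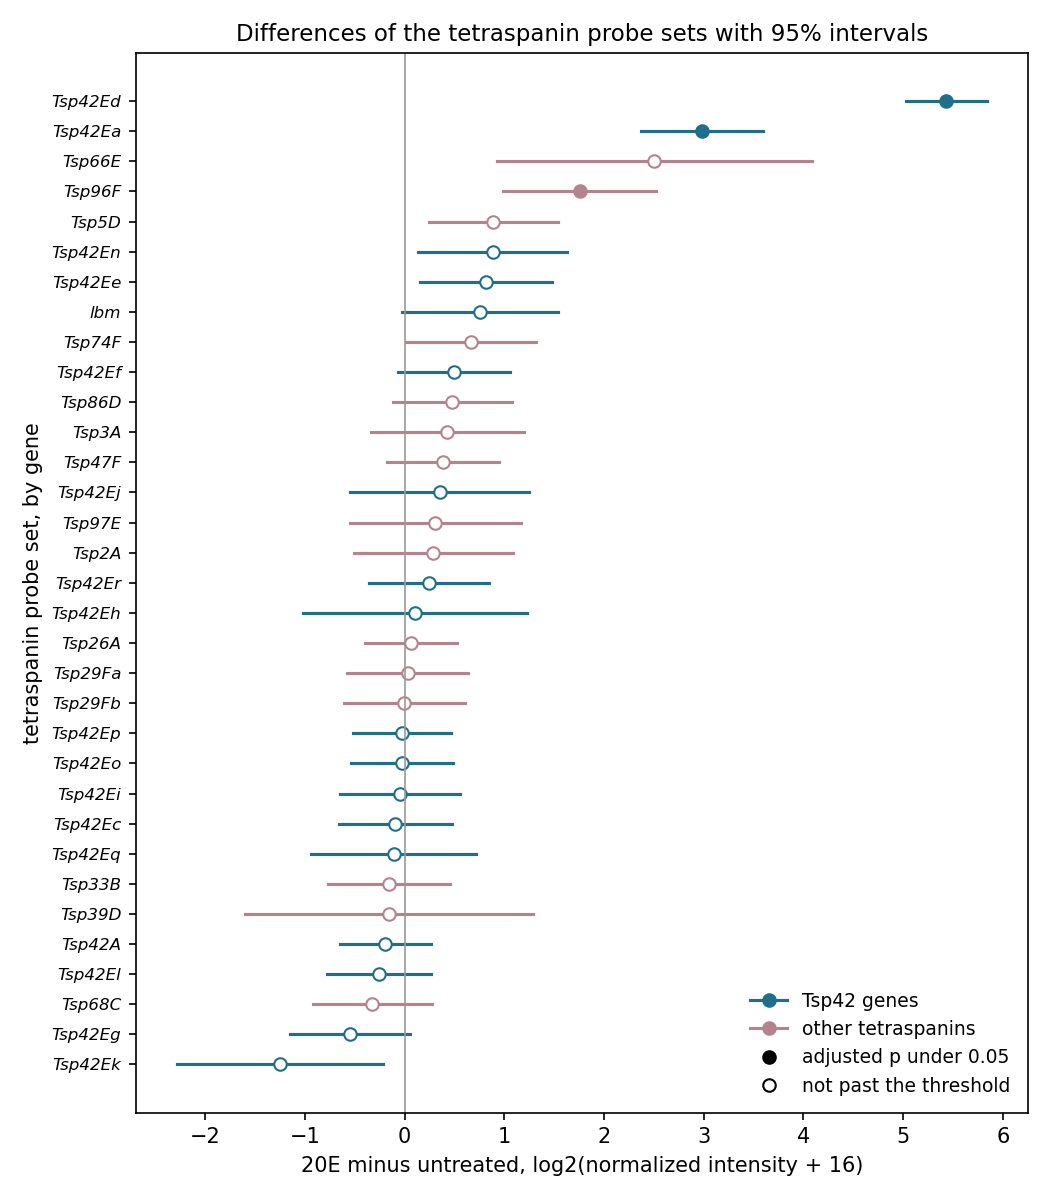
Difference between 20E and untreated samples for the 33 tetraspanin probe sets (x axis, log2 of normalized intensity + 16), 1 row per gene, with 95% intervals from limma (n = 3 per group, 2 20E samples for Tsp68C, Tsp42Ee and Tsp5D). Filled points, for Tsp42Ed, Tsp42Ea and Tsp96F, passed an adjusted p of 0.05, and most open points lie near 0.

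Tsp42Ed had the largest difference. Its normalized intensities in untreated samples were −8.67, −10.4 and −7.38 in replicates 1 to 3, and in 20E samples they were 683, 651 and 695. All 3 untreated values were below 0, so no fold is given, and the groups were far apart. On the log2 scale it was higher by 5.43 ± 0.17 (SE, adjusted p = 2.63e-05). With the untreated values at the floor, this size follows from the offset: it was 9.40 with an offset of 1 and 3.53 with an offset of 64. The floor also gave all 3 untreated samples the same log2 value, so the SE and p-value hold no spread of the untreated samples.

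Tsp42Ea stood at 56.5, 36.3 and 38.5 units in untreated samples and at 470, 342 and 568 in 20E samples. The lowest 20E value was well above the highest untreated one, and the ratio of the means was 10.5. It was higher by 2.98 ± 0.26 (SE, adjusted p = 0.00142). Its probe set has the suffix _s_at, which marks probes that can match several transcripts, as 8 of the 33 members carry such a suffix (_s_at or _a_at). The calls of Tsp42Ed and Tsp42Ea held when any 1 array was left out, with adjusted p of at most 0.00113 and 0.0171.

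Tsp96F, the one call outside the Tsp42 group, was at 7.19, 26.3 and 32.9 units in untreated samples and at 111, 84.8 and 128 in 20E samples. The groups did not overlap, and the ratio of the means was 4.88. The difference was 1.76 ± 0.32 (SE, adjusted p = 0.0292). Unlike the other 2 calls, this one was lost without untreated replicate 2 (adjusted p = 0.088) or 3 (0.0715), without 20E replicate 1 (0.124) or 3 (0.128), and with an offset of 1 (0.102).

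**Figure D2:**
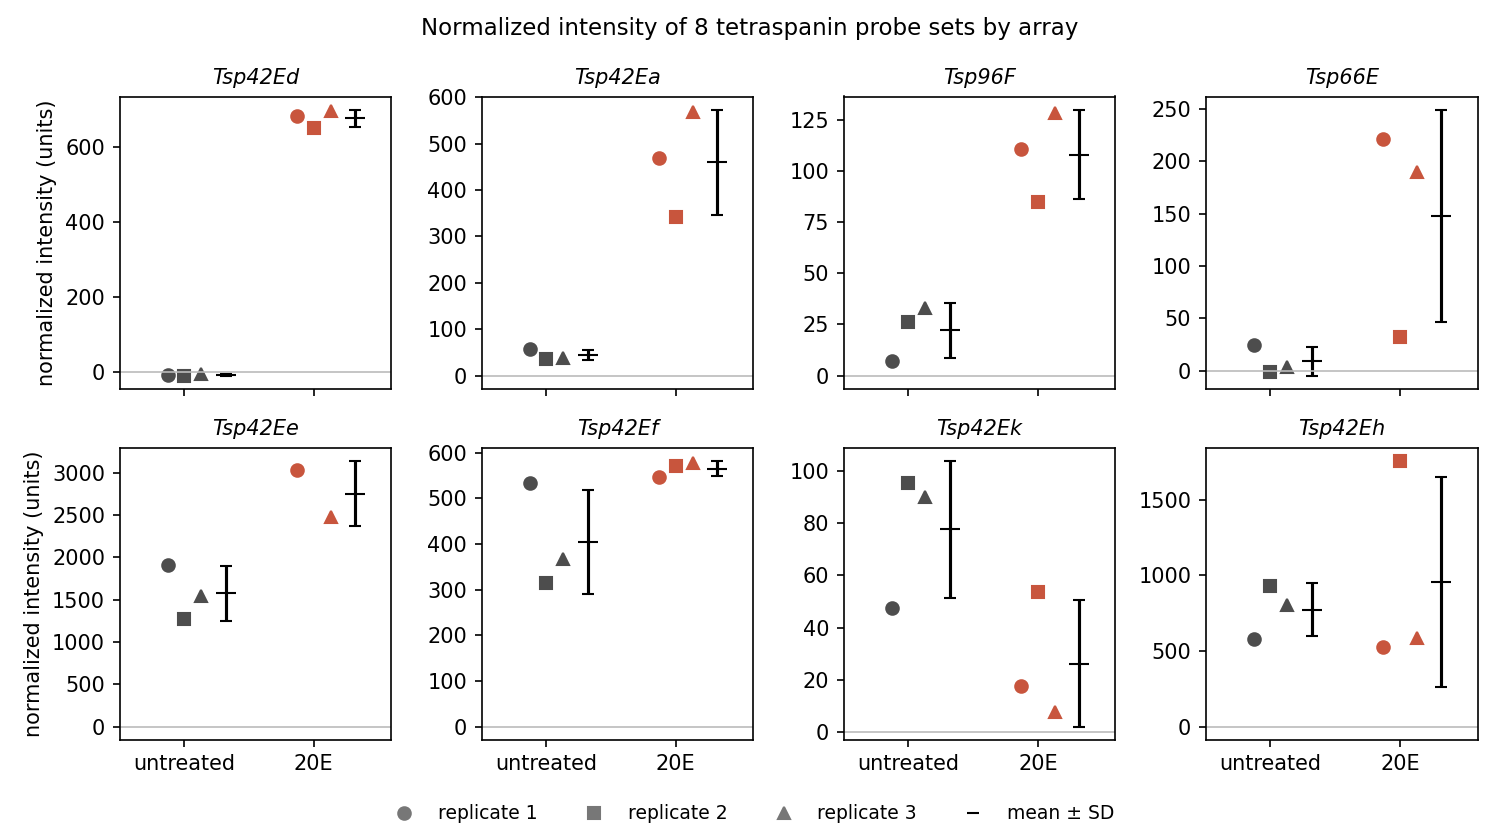
Normalized intensity (y axis, units, a separate scale in each panel) of 8 tetraspanin probe sets in each untreated and 20E array, with the mean ± SD of each group beside the points. Tsp42Ed, Tsp42Ea and Tsp96F separate the groups, 20E replicate 2 is apart from the other 20E arrays for Tsp66E and Tsp42Eh, and Tsp42Ee has no value on 20E replicate 2.

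Tsp66E had a larger difference than Tsp96F but did not pass. It was at 24.6, −1.20 and 3.63 units in untreated samples and at 222, 31.7 and 190 in 20E samples. The groups did not overlap, but 20E replicate 2 lay close to untreated replicate 1. The difference was 2.51 ± 0.67 (SE, adjusted p = 0.0938), and without 20E replicate 2 it was 3.23 (adjusted p = 0.0124). Its untreated level was near 0, and alternative settings gave differences between 1.39 and 4.51. Its probe set can match several transcripts.

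The lowest difference was that of Tsp42Ek, at 47.4, 95.3 and 90 units in untreated samples and at 17.5, 53.5 and 7.64 in 20E samples. Here the groups overlapped, since 20E replicate 2 was above untreated replicate 1. The difference was −1.25 ± 0.44 (SE, adjusted p = 0.194). Without 20E replicate 2 it was −1.67 and passed the threshold (adjusted p = 0.0454).

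In the RefSeq gene table (Release 6 plus ISO1 MT) the Tsp42E genes lie together on chromosome arm 2R, while Tsp42A lies apart from them, with 146 gene starts between it and Tsp42Ea. Both risen genes of the Tsp42 group lie at the Tsp42Ea end of the cluster, but not next to each other. Tsp42Eb, which is not a member here, and Tsp42Ec both start between them. The probe set that Tsp42Eb shares with CG30160 differed by 0.67 (limma, adjusted p = 0.311). Tsp42Ec, Tsp42Ed and Tsp42Ee follow one another with no other gene start between them. Tsp42Ec, the neighbour on one side of Tsp42Ed, stood at 44.2, 34 and 23 units in untreated samples and at 37.3, 23.3 and 30 in 20E samples. These values overlapped, with a difference of −0.095 ± 0.24 (SE, adjusted p = 0.902).

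Tsp42Ee, the neighbour on the other side, gave a bright signal. It was at 1912, 1268 and 1543 units in untreated samples and at 3024 and 2478 in 20E replicates 1 and 3, with an empty cell on 20E replicate 2. The 20E values at hand lay above the untreated ones, and the difference was 0.81 ± 0.27 (SE, adjusted p = 0.194, n = 3 and 2). The contrast of Tsp42Ed with its neighbours was given no test.

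**Figure D3:**
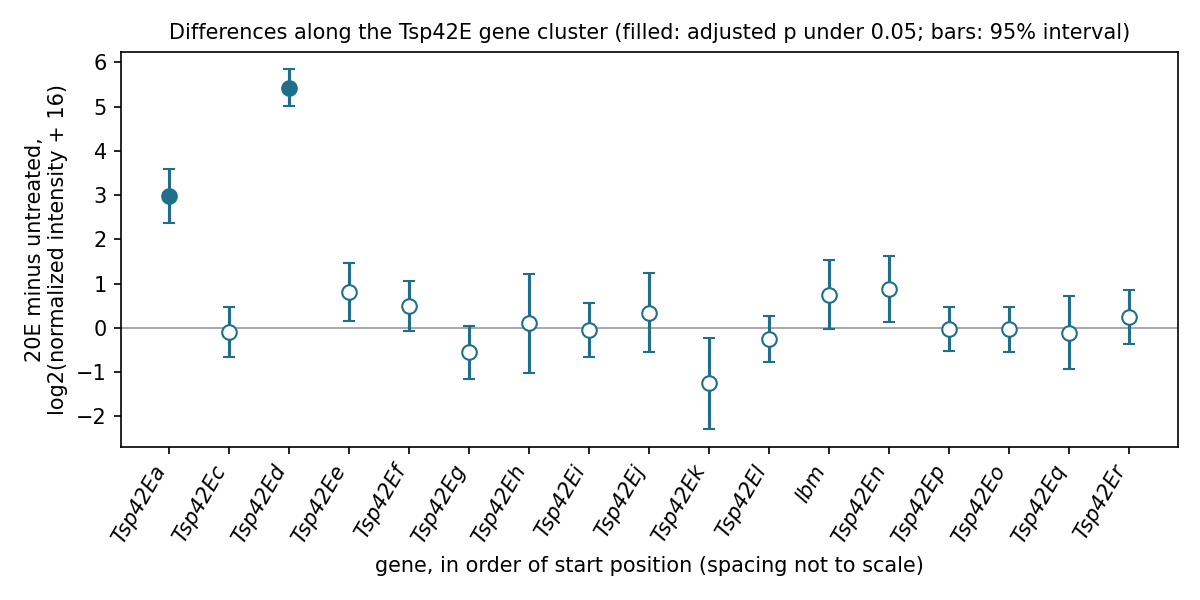
Difference between 20E and untreated samples (y axis, log2 of normalized intensity + 16, with 95% intervals) for the 17 Tsp42E genes with lbm, in the order of their starts on the chromosome arm and not to scale. Tsp42Ea and Tsp42Ed are at 2.98 and 5.43, and Tsp42Ec between them is at −0.095. Tsp42Eb also lies between them and is not plotted.

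Further along the cluster no member passed. Tsp42Ef was at 533, 315 and 367 units in untreated samples and at 546, 570 and 578 in 20E samples. The 20E values were close together and just above the highest untreated one, with a difference of 0.50 ± 0.24 (SE, adjusted p = 0.363). Tsp42Eh was at 582, 931 and 804 units in untreated samples and at 528, 1757 and 585 in 20E samples. Its sign rested on single arrays: the difference was 0.11 ± 0.47 (SE, adjusted p = 0.946) with all arrays, −0.44 without 20E replicate 2 (adjusted p = 0.379) and −0.080 without untreated replicate 1 (adjusted p = 0.962).

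Tsp42Ej, also known as sunglasses, encodes a lysosomal tetraspanin that takes part in the turnover of rhodopsin in photoreceptors. Its values overlapped, at 25.6, 60.7 and 21.7 units in untreated samples and 66.9, 25.6 and 56.2 in 20E samples (difference 0.35 ± 0.38, SE, adjusted p = 0.726). The gene lbm acts in motor neuron growth cones during synapse formation. It was at 45.9, 17.9 and 20.7 units in untreated samples and at 66.4, 34.9 and 72.4 in 20E samples, again with overlap (0.76 ± 0.33, SE, adjusted p = 0.309). Its direct neighbour Tsp42En was at 2.23, 18.7 and 19.7 units in untreated samples and at 27, 44.7 and 38.2 in 20E samples, without overlap but at low intensity (0.88 ± 0.32, SE, adjusted p = 0.206).

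Tsp42Eg was dim, at 11.2, 5.09 and 16 units in untreated samples and 6.99, −1.16 and −12.6 in 20E samples. The groups overlapped in 1 20E value, and the difference was −0.55 ± 0.25 (SE, adjusted p = 0.345). Of the 16 members of the Tsp42 group that were not called, 11 differed by less than 0.5 in either direction, from −0.26 for Tsp42El to 0.50 for Tsp42Ef. Among these, Tsp42A, Tsp42Ei, Tsp42Eo, Tsp42Ep, Tsp42Eq and Tsp42Er had group means between 12.1 and 34 units, and their groups overlapped.

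The members Tsp3A, Tsp26A and Tsp86D, outside the cluster, are of the TspanC8 kind, which brings the metalloprotease Kuzbanian to the cell surface, where it cuts the receptor Notch. Tsp3A was at 374, 194 and 199 units in untreated samples and at 447, 266 and 311 in 20E samples. In both groups replicate 1 was highest, and the groups overlapped (0.43 ± 0.32, SE, adjusted p = 0.587). Tsp86D was at 188, 113 and 109 units in untreated samples and at 216, 181 and 177 in 20E samples, with untreated replicate 1 inside the 20E range (0.48 ± 0.25, SE, adjusted p = 0.414). Tsp26A was dim and close to level, at 16.9 ± 0.38 and 18.7 ± 5.01 units (SD, n = 3 per group; 0.068 ± 0.19, SE, adjusted p = 0.915). The 95% intervals reached 1.19, 1.08 and 0.53 for Tsp3A, Tsp86D and Tsp26A, so that rises up to these sizes cannot be told from none.

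Of 12 genes of Notch cleavage and its ligands, fixed as a list, 7 were measured by 8 probe sets and none was called. The Kuzbanian gene kuz was at 138, 132 and 285 units in untreated samples and at 383 and 1316 in 20E replicates 2 and 3, with an empty cell on 20E replicate 1. The values did not overlap but those of 20E lay far apart, and the difference was 1.94 ± 0.59 (SE, adjusted p = 0.159, n = 3 and 2). Kul, a gene of the same protease family, went from 222 ± 167 to 40.8 ± 45.2 units (SD, n = 3 per group), with overlap. Its difference was −2.10 ± 0.67 (SE, adjusted p = 0.158), and Tace differed by −0.65 (adjusted p = 0.689). The lowest adjusted p of the list was that of pen-2, at 219 ± 24.6 and 410 ± 70.8 units (SD, n = 3 per group) without overlap. Its difference was 0.85 ± 0.21 (SE, adjusted p = 0.0775). Differences in this list ran from that of Kul to that of kuz, with a median of 0.27. This median includes a Delta probe set that was below 0 on all arrays, so that the floor set its difference. With 0 calls among 8 probe sets the list is close to the background of 5.10%.

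Tsp2A is a component of the smooth septate junction of the gut, together with Mesh and Ssk. It was at 80.6, 69.5 and 41.8 units in untreated samples and at 68.1, 129 and 55.3 in 20E samples, with overlap (0.29 ± 0.34, SE, adjusted p = 0.751). None of the 4 probe sets of mesh, Ssk and hoka was called, against 5.10% of all probe sets, with differences from −0.090 to 0.45.

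Tsp5D had values of 25.4, 13.8 and 11.7 units in untreated samples and of 43.6 and 44.7 in 20E replicates 1 and 3, with an empty cell on 20E replicate 2. The groups were apart at low intensity (0.89 ± 0.26, SE, adjusted p = 0.147, n = 3 and 2). Tsp74F was dimmer, at 13.7, 1.17 and 10.2 units in untreated samples and at 16.7, 30.2 and 19.2 in 20E samples, also without overlap (0.66 ± 0.28, SE, adjusted p = 0.282). Tsp68C was the one member whose 20E values all lay below the untreated ones, at 24.9, 29.7 and 41.1 units against 21.8 and 21.9 in 20E replicates 1 and 3 (−0.32 ± 0.24, SE, adjusted p = 0.59, n = 3 and 2).

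Tsp39D and Tsp97E varied more between arrays than between groups. Tsp39D was at 100, 26.1 and 46.8 units in untreated samples and at 80.6, 8.90 and 75.2 in 20E samples, so that replicate 2 was lowest in both groups (−0.16 ± 0.61, SE, adjusted p = 0.936). Tsp97E was at 95.8, 48.8 and 66.2 units in untreated samples and at 110, 48.4 and 123 in 20E samples, with replicate 2 lowest in each group (0.31 ± 0.36, SE, adjusted p = 0.751). Tsp47F differed by 0.38, Tsp29Fa by 0.032, Tsp29Fb by −0.0028 and Tsp33B by −0.15, with adjusted p from 0.491 to 1 and overlapping groups. TM4SF, a tetraspanin gene that the symbol rule does not reach, differed by −0.16 (adjusted p = 0.838).

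Set side by side, the Tsp42 group had 2 of 18 probe sets called (11.1%) and the other tetraspanins 1 of 15 (6.67%), against the 5.10% of all probe sets. The median difference was 0.041 in the Tsp42 group, 0.31 in the others and −0.023 over all probe sets tested. On leaving out 1 array these medians ran from 0.036 to 0.22 in the Tsp42 group, with 0.22 without 20E replicate 3, 0.19 without untreated replicate 2, 0.12 without 20E replicate 1 and 0.10 without untreated replicate 1. In the others they ran from 0.22 to 0.48, highest without 20E replicate 2. After the 40th percentile filter their order was turned, with 0.63 in the Tsp42 group and 0.37 in the others. That filter used the mean over the arrays of both groups. Members such as Tsp42Ed, Tsp66E and Tsp96F passed it only through their 20E values, while dim members near 0 difference were dropped. No conclusion is therefore drawn from the turned order. In the Tsp42 group 9 differences were above 0 and 9 below, and in the others 11 and 4. Without Tsp42A the median of the Tsp42E genes was 0.11. Both groups of genes held a few members with large differences among many near 0, and the contrast between them was given no test.

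Of the 30 members with 6 values, 7 had all 20E values above the untreated ones and none had all below, 23.3% in all, against 22.8% of the 18080 probe sets with 6 values. For rises alone the background share was 10.4%. At an unadjusted p under 0.05 there were 9 members, 8 higher and 1 lower, or 27.3% against 17.2% of all probe sets. Of the 30 members that were not called, 14 had a 95% interval of the log2 difference within −1 and 1, and 16 had an interval that reached beyond, so that a 2-fold change of intensity plus offset lies inside these. The mean normalized intensity of 20 of the 33 members was at or below 50.3 units, the median of the arrays, where the offset compresses differences.

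Of 7 integrin genes with 9 probe sets, if and scb rose, 22.2% of the probe sets against 5.10% of all, in a list chosen with these rises known. They rose by 2.51 ± 0.46 (SE, adjusted p = 0.0388, n = 3 and 2) and 3.15 ± 0.33 (adjusted p = 0.00334), and the median of the list was 0.13. Of 18 genes of multivesicular bodies and secreted vesicles, where tetraspanins are abundant, 16 were measured by 16 probe sets and 1 rose, a share of 6.25% that is near the background of 5.10%. This was TSG101, a subunit of the ESCRT-I sorting complex. It was at 429, 366 and 481 units in untreated samples and at 933, 810 and 879 in 20E samples, so that the groups were well apart. The difference was 1.02 ± 0.20 (SE, adjusted p = 0.0329). The other 15 ran from −0.52 for Vps25 to 1.14 for Rab35 (lowest adjusted p = 0.0944), and the median of the list was 0.16.

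**Figure D4:**
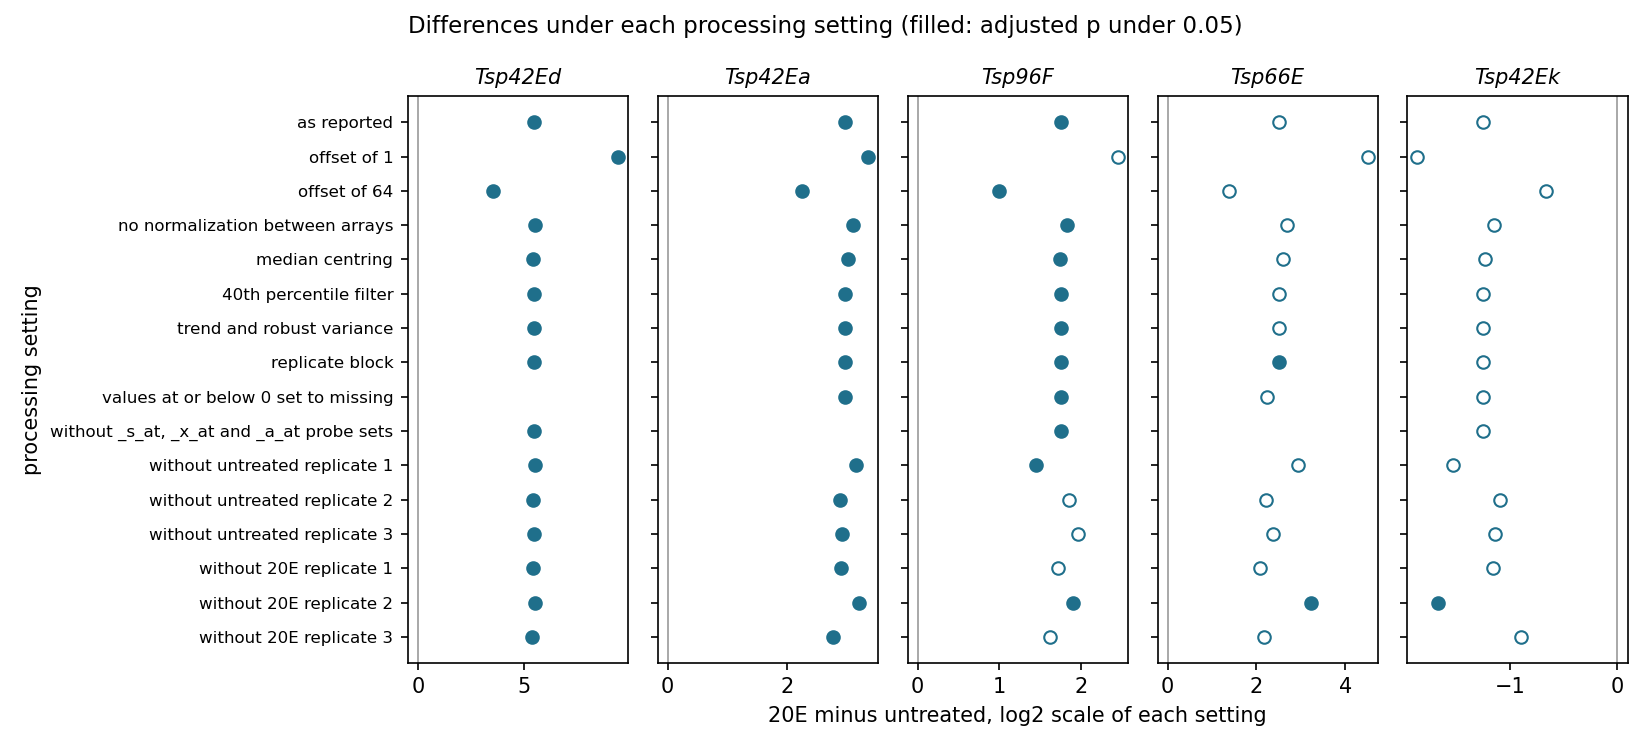
Difference between 20E and untreated samples (x axis, log2 scale of each setting, a separate range in each panel) of 5 tetraspanin probe sets under each processing setting (y axis). Filled points have an adjusted p under 0.05, and a missing point means that the setting left the probe set out or that it could not be tested. Tsp42Ed and Tsp42Ea are filled wherever they were tested, Tsp96F in 10 of 15 alternatives, Tsp66E in 2 of 14 and Tsp42Ek in 1 of 15.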

How the data were processed

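RNA of 6 samples was measured on single-colour arrays. For each probe set and array the authors deposited a linear intensity. How they corrected background, summarised probes and scaled arrays is not given in the sources used here. Intensities were quantile normalized between arrays, set to a floor of 0 and taken as log2(intensity + 16). Quoted intensities are normalized values before the floor, and 3 member cells were empty and dropped. Quantile normalization would hide a shift that most transcripts share. Groups and replicate numbers came from the sample titles.

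The fit used R 4.3.3 with limma 3.58.1 (eBayes after lmFit, two-sided) over the whole table. 2 probe sets could not be fitted. Members and lists were chosen with earlier results of these data known, so each list as a whole got counts and medians and no test. Values given for single list genes come from the same fit over all probe sets. All members are named or counted. Per-array values are given for those called, the largest uncalled differences and those with a described role, and for further members chosen after their values were seen. Names came from the platform annotation, updated through the RefSeq gene table, which held all 33 members. Gene order came from start positions in that table. No coordinate is printed, and no sequences were used here. The number of arrays limits precision.

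Deviations of same-numbered untreated and 20E arrays from their group means correlated with r = 0.24, 0.37 and −0.020 over 18080 probe sets. For unlike-numbered arrays r ran from −0.40 to 0.34. The same-numbered values did not all lie above these, so replicate numbers were not taken as pairs. Alternatives were offsets of 1 and 64, no normalization, median centring, dropping probe sets under the 40th percentile, eBayes with trend and robust options, a replicate block, values at or below 0 as missing, no multi-transcript probe sets and leaving out each array.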

Additional observations from a re-analysis of the deposited data

How the results depend on the processing

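The count of 3 called tetraspanins became 5 without 20E replicate 2, when Tsp66E and Tsp42Ek passed, and ranged from 2 to 5 on leaving out 1 array. In the Tsp42 group the 2 calls became 1 with values at or below 0 as missing, where Tsp42Ed could not be tested, and 1 without multi-transcript probe sets, which left out Tsp42Ea. On leaving out 1 array they ranged from 2 to 3. Outside it the 1 call became 0 with an offset of 1 and 2 with the replicate block (Tsp66E, adjusted p = 0.0278), and ranged from 0 to 2 on leaving out 1 array. The block changed no other member's call. Over all probe sets the 957 calls became 567 with an offset of 1, and ranged from 326 to 1174 on leaving out 1 array. Without multi-transcript probe sets there were 629 calls among the 15192 tested, 4.14% against 5.10% of 18767. The median of the Tsp42 group was 0.63 and that of the others 0.37 after the 40th percentile filter, which kept 16 of the 33 members. The filter keeps members that are high in 20E samples alone, so these 2 medians are partly set by it. Without normalization the medians were 0.18 and 0.47. The cause of the other changes was not tested.

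Of the member differences under alternatives, 30 changed sign, in 12 genes, none of them called. Without normalization these were Tsp29Fb (0.055), Tsp42Ei (0.0058), Tsp42Eo (0.025), Tsp42Ep (0.047) and Tsp42Eq (0.013). On leaving out 1 array the ranges were −0.031 to 0.17 for Tsp26A, −0.14 to 0.20 for Tsp29Fa, −0.19 to 0.12 for Tsp29Fb, −0.014 to 0.49 for Tsp2A, −0.39 to 0.016 for Tsp33B and −0.51 to 0.48 for Tsp39D. For the Tsp42 group they were −0.26 to 0.054 for Tsp42Ec, −0.44 to 0.42 for Tsp42Eh, −0.28 to 0.096 for Tsp42Ei, −0.15 to 0.13 for Tsp42Eo, −0.16 to 0.077 for Tsp42Ep and −0.31 to 0.19 for Tsp42Eq.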
